A study of Xenopus laevis with 3 samples.

Results

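NEK kinases, the relatives of the fungal mitotic kinase NIMA, were represented by 13 rows of the 34694 gene rows measured in whole testis of Xenopus laevis, the African clawed frog. The rows were chosen by symbol: after removal of a final .L or .S, the name had to be nek followed by a number. They stood for 11 genes, nek1 to nek11. Xenopus laevis is allotetraploid, and its paired gene copies, called homeologs, are written .L and .S after the chromosome set on which they lie. Both copies had a row for nek1 and nek6, that is for 2 of 11 genes (18.2%), against 7764 of 14439 named genes of the whole table (53.8%). The other 9 genes were measured through 1 copy each: nek5, nek9, nek10 and nek11 through L, and nek2, nek3, nek4, nek7 and nek8 through S. Their partner copies were not analysed here.

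The data were 3 poly-A RNA libraries of testis with mixed cell types, each labelled as an untreated male of outcrossed laboratory stock. They differ in processing date and form 1 group, without a second condition. The labels do not say whether separate animals were used, so spreads and p-values describe these libraries and may be technical. They are called replicate 1, 2 and 3 and held 70580016, 68378714 and 61212304 counts.

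NIMA-related kinases are serine/threonine kinases that act at microtubule structures, and animals have a family of them. One branch works at the cilium or flagellum, where mutations in some members give cystic kidneys in mice. Another works on centrosomes and spindles, separating centrosomes before division and building the spindle in mitosis and meiosis. A testis holds both structures in quantity, since spermatocytes divide by meiosis and spermatids grow a flagellum.

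All 13 NEK rows were detected, meaning at least 0.5 CPM (counts per 1000000, scaled between libraries) and over 3 counts in all 3 libraries. Over all rows the detected share was 66.7%, and over rows with a gene name it was 81.6%. Together the 13 rows reached 354, 388 and 322 TPM in replicates 1, 2 and 3, a mean of 355 ± 33.2 TPM (SD, n = 3). TPM is the abundance per base of gene length, scaled to a common total of 1000000 per library. Levels ran over a wide range, with 70.3 TPM for nek1.L at the top and 1.70 TPM for nek6.L at the bottom. The top 3 rows, nek1.L, nek2.S and nek1.S, made up 53.1%, 57.8% and 57.4% of the NEK total in replicates 1, 2 and 3. The median NEK row had 17.5 TPM, against 9.72 TPM for the median detected row, and 8 NEK rows lay above that of the detected rows and 5 below it.

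**Figure D1:**
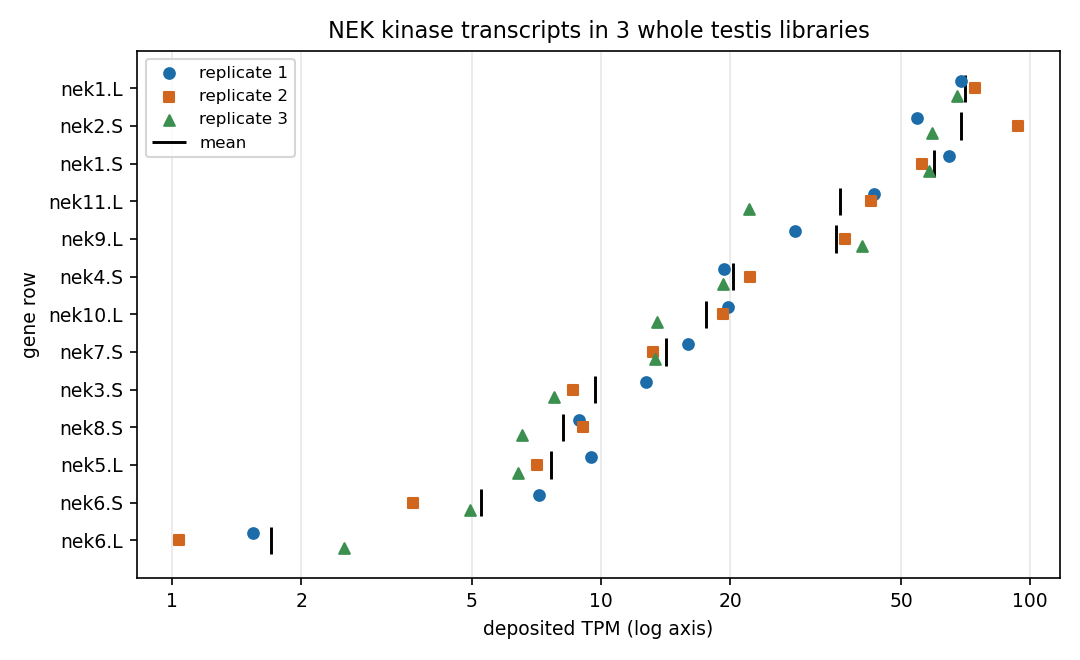
Deposited TPM (log axis) of each of the 13 NEK rows, sorted by mean. Points are the 3 libraries and vertical bars their mean. The 3 leading rows lie above 54 TPM in each library, and nek6.L stays below 3 TPM.

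The ciliary kinase nek1 was the most abundant gene of the family with both copies added, though most other members were measured through 1 copy. Row by row, nek2.S at 69.0 TPM lay between nek1.L at 70.3 and nek1.S at 59.6 TPM. In mice, loss of nek1 causes polycystic kidneys and male sterility, and the NEK1 protein also serves in the response to DNA damage. The copy nek1.L had 17951, 19131 and 15686 counts in replicates 1, 2 and 3, or 69.0, 74.5 and 67.6 TPM. The copy nek1.S had 16811, 14375 and 13462 counts, or 64.6, 56.0 and 58.0 TPM. With both copies added, nek1 stood at 130 ± 4.04 TPM (SD, n = 3), or 36.8 ± 2.82% of the NEK total. By TPM, its copies were also the steadiest rows of the family. The coefficient of variation (CV, the SD as a percent of the mean) was 5.19% for nek1.L and 7.58% for nek1.S, against a median of 22.0% over all detected rows. On scaled CPM, nek1.S stayed at 223, 220 and 225, but nek1.L had 238, 293 and 262 in replicates 1, 2 and 3. On that scale nek7.S, at 12.6, 11.9 and 11.9 CPM, was steadier than nek1.L.

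The other kinases linked to cilia were expressed at lower levels. The kinase nek8 acts in the inversin compartment at the base of the cilium and is mutated in the jck mouse, which has cystic kidneys. Its copy nek8.S had 1154, 1163 and 758 counts, or 8.88, 9.07 and 6.54 TPM, lowest in replicate 3. The ratio of nek1, both copies together, to nek8.S was 15.0, 14.4 and 19.2 in replicates 1, 2 and 3. The kinase nek4, whose mammalian protein binds the ciliary protein RPGRIP1 and takes part in the DNA damage response, was represented by nek4.S. It had 3011, 3430 and 2682 counts, or 19.3, 22.3 and 19.3 TPM, with a CV of 8.51%. The kinase nek10 is needed for normal motile cilia in human airway cells and acts in a DNA damage checkpoint. Its copy nek10.L had 4242, 4080 and 2582 counts, or 19.8, 19.3 and 13.5 TPM. Replicate 3 was again the lowest.

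The centrosome kinase nek2 stood beside the nek1 copies in level but varied more. Its protein dissolves the linker that ties both centrosomes of a cell together, and in mice it is abundant in meiotic spermatocytes. The copy nek2.S had 4960, 8408 and 4783 counts, or 54.5, 93.6 and 58.9 TPM. Replicate 2 was 1.72 times the lowest library, and the CV was 31.0%. In replicate 2, nek2.S exceeded both nek1 copies, while nek1.L exceeded it in replicates 1 and 3. The row nek2.S has a deposited length of 1385 bases, which is not a multiple of 3, unlike the other 12 NEK rows, so its length may not be a pure coding length. The related nek5, which works on centrosomes in cultured human cells, was far lower. Its copy nek5.L had 1698, 1257 and 1024 counts, or 9.47, 7.11 and 6.40 TPM.

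Of the kinases of the spindle cascade, nek9.L was above nek7.S in each library. In this cascade, known from frog egg extracts and human cells, NEK9 is switched on in mitosis and activates NEK6 and NEK7, which phosphorylate the spindle motor KIF11. The upstream kinase nek9.L had 5521, 7136 and 7080 counts, or 28.3, 37.0 and 40.7 TPM. The downstream kinase nek7.S had 952, 781 and 713 counts, or 15.9, 13.2 and 13.4 TPM. The ratio of nek9.L to nek7.S was 1.77, 2.80 and 3.04 in replicates 1, 2 and 3, so the order was the same in each library. By deposited TPM, the copies of nek6 together had 8.71, 4.68 and 7.47 TPM. The ratio of nek9.L to nek6 was 3.25, 7.91 and 5.44, and that of nek7.S to nek6 was 1.83, 2.83 and 1.79. These ratios depend on the deposited length of nek6.S, which is longer than that of nek6.L. With the length of nek6.L used for both copies, an alternative chosen after seeing the data, nek6 stood at 15.9, 8.36 and 12.5 TPM. The ratio of nek9.L to nek6 was then 1.77, 4.43 and 3.26, and that of nek7.S to nek6 was 0.999, 1.58 and 1.07, so nek7.S was not above nek6 in replicate 1. The kinases nek6 and nek7 are close relatives, and how reads matching several places were treated is not given in the sources used here.

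The checkpoint kinase nek11 followed the 3 leading rows by mean level. Its human protein delays division after DNA damage by promoting the breakdown of CDC25A. The copy nek11.L had 5165, 5019 and 2356 counts, or 43.2, 42.6 and 22.1 TPM. The libraries of replicates 1 and 2 were close to each other, and replicate 3 had about 1.96-fold less than replicate 1. The level of nek11.L exceeded that of nek10.L 2.18, 2.21 and 1.64 times in replicates 1, 2 and 3. The remaining kinase, nek3, is known from signalling of the prolactin receptor in human breast cancer cells. Its copy nek3.S had 1229, 823 and 671 counts, or 12.7, 8.61 and 7.77 TPM, highest in replicate 1.

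The order of the rows by mean TPM was nek1.L, nek2.S, nek1.S, nek11.L, nek9.L, nek4.S, nek10.L, nek7.S, nek3.S, nek8.S, nek5.L, nek6.S and nek6.L. Of the 12 neighbouring pairs in this order, 8 had ranges over the 3 libraries that overlapped, so their order was not settled by the ranges. In 2 of those 8, nek10.L above nek7.S and nek5.L above nek6.S, the order still held within each of the 3 libraries. Ranges did not overlap in the other 4 steps. These were nek1.S above nek11.L (1.66 times by the means), nek9.L above nek4.S (1.74 times), nek7.S above nek3.S (1.46 times) and nek6.S above nek6.L (3.08 times). The place of nek6.S also depends on its deposited length, given with the homeologs.

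Of the homeolog pairs, nek6 differed between copies and nek1 did not pass the test. For nek6, the S copy held most of the transcripts. The copy nek6.L had 95, 63 and 138 counts, or 1.55, 1.04 and 2.52 TPM. The copy nek6.S had 883, 443 and 544 counts, or 7.16, 3.64 and 4.95 TPM. The copies did not overlap, and L made up 17.8%, 22.2% and 33.7% of nek6 in replicates 1, 2 and 3. Per base of length, L over S gave a fitted log2 value of -1.66 (SE 0.330), so that L was 3.16 times lower. The adjusted p was 0.00940 (edgeR's quasi-likelihood F test, Benjamini-Hochberg over 6627 pairs). The ratio was below 0 in 3 of 3 libraries, at -2.21, -1.81 and -0.97.

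The size of the nek6 difference rests on the deposited gene lengths, 933 bases for nek6.L and 1875 bases for nek6.S. A length of the S model 2.01 times that of the L model lowers its TPM by that factor. At the length of nek6.L, nek6.S would have 14.4, 7.32 and 9.95 TPM. Without the length, the log2 ratio was -2.67 (SE 0.341, adjusted p = 0.00222, edgeR). RefSeq lists 5 transcripts for nek6.L and 9 for nek6.S, and which of them the reads came from cannot be seen in counts per gene.

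For nek1, both copies had nearly the same length, 3960 bases for L and 3957 for S. On the log2 scale L over S was 0.09, 0.41 and 0.22 in replicates 1, 2 and 3, positive in 3 of 3 libraries. The fitted ratio of 0.24 (SE 0.106, adjusted p = 0.103, edgeR), or 1.18-fold, did not pass, which does not show that the copies are equal. Of all pairs, 61.1% passed, 34.4% with L and 26.6% with S higher, so 1 of 2 NEK pairs is no departure that can be read. By absolute ratio, nek1 lay above 15.2% of the pairs and nek6 above 71.9%. Reads that match both copies could be dropped or split in counting, so ratios of near-identical copies are uncertain.

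**Figure D2:**
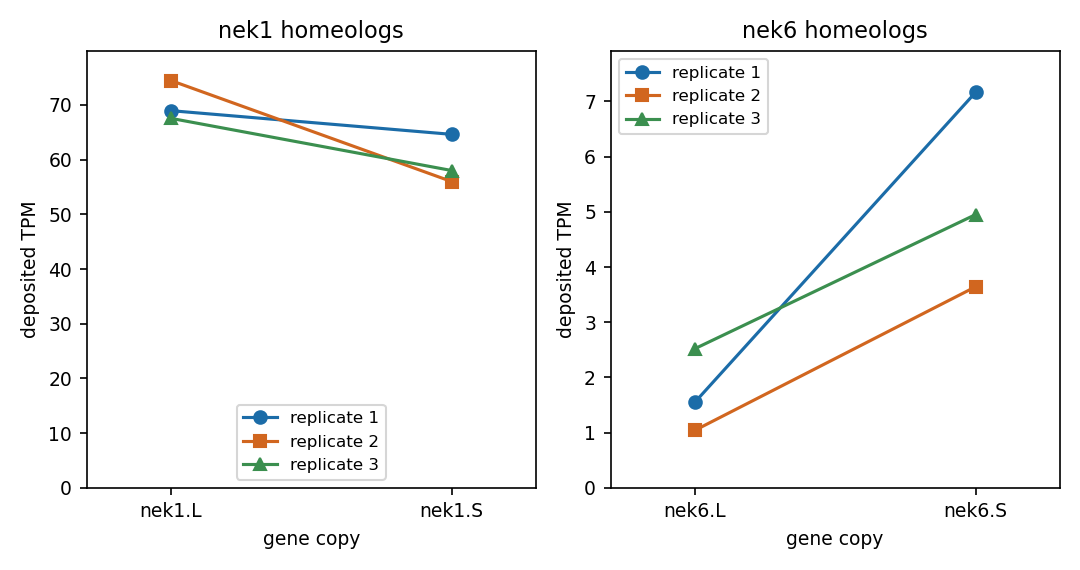
Deposited TPM of the L copy (left) and the S copy (right) of nek1 and of nek6, with a line for each library. The nek6 copies do not overlap, with L at 1.04 to 2.52 TPM and S at 3.64 to 7.16 TPM, and the nek1 lines are closer to level.

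Between libraries, NEK rows varied about as much as other rows, and not all in one way. Their CV by TPM had a median of 19.9% and ran between 5.19% for nek1.L and 44.1% for nek6.L, against a median of 22.0% over 23153 detected rows. For nek6.L, with 63 counts in its lowest library, counting alone gives a CV of 12.6% there. By TPM, 7 of 13 NEK rows were highest in replicate 1, 4 in replicate 2 and 2 in replicate 3, against 50.03%, 28.3% and 21.6% of detected rows. On CPM scaled between libraries by TMM (a method that centres the bulk of genes), these counts were 4, 6 and 3. Of detected rows, 35.6%, 35.8% and 28.6% were highest in those libraries on that scale. The highs of nek1.L, nek2.S, nek4.S and nek8.S in replicate 2, nek9.L and nek6.L in replicate 3 and nek3.S, nek5.L, nek7.S and nek6.S in replicate 1 were the same on both scales. So were the lows of nek3.S, nek5.L, nek8.S, nek10.L and nek11.L in replicate 3. The highs of nek1.S, nek10.L and nek11.L were in another library on the CPM scale.

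Markers of cell types moved between the same libraries. The summed level of 12 smooth muscle rows was 119, 462 and 1263 TPM in replicates 1, 2 and 3. That of 9 Leydig cell rows, which mark the steroid-producing cells, was 617, 863 and 1551 TPM. Of these 9 rows, 7 were highest in replicate 3 and 2, the copies of scarb1, in replicate 1. Leukocyte rows, 9 in number, summed to 81.3, 60.1 and 236 TPM, of which mpo.S, for a granulocyte peroxidase, gave 2.14, 1.49 and 131 TPM. The other 8 rows summed to 79.1, 58.6 and 104.9 TPM. Replicate 3 was thus highest in these 3 lists. By TPM, 7 of 13 NEK rows were lowest in replicate 3, against 34.0% of detected rows. On scaled CPM 6 were, against 27.8%. The rows nek9.L and nek6.L were highest in replicate 3 on both scales. The Sertoli sum was also highest there, at 775, 605 and 878 TPM, of which clu.L gave 287, 332 and 429 TPM. The Sertoli rows did not move together, and of 16 rows 8 were highest in replicate 1, 2 in replicate 2 and 6 in replicate 3. Other sums were lowest in replicate 3, with 2378, 2143 and 2000 TPM for the spermatogonia list and 135, 114 and 61.3 TPM for erythrocytes. So were those of the oocyte list (209, 218 and 173 TPM) and multiciliated epithelium (7.33, 6.10 and 4.78 TPM). Most of the oocyte sum came from figla.L, at 92.7, 128 and 88.3 TPM, and gtf3a.L, at 89.5, 57.6 and 63.6 TPM. Of these, gtf3a.L was lowest in replicate 2, and rows such as gdf9.L and bmp15.L were not detected. Of the spermatogonia sum, dazl.L gave 1191, 1309 and 1043 TPM. The next row by mean, ddx4.L, had 480, 352 and 360 TPM and was lowest in replicate 2. The low of that sum in replicate 3 is thus not shared by all its rows. Rows such as zbtb16.L and sall4.L, with means of 0.943 and 0.445 TPM, hardly entered the sum, which follows its leading rows. The endothelial sum was 39.7, 30.8 and 32.4 TPM, lowest in replicate 2. The 26 spermatid and axoneme rows summed to 3396, 4589 and 3841 TPM, with a median row of 83.7, 123 and 95.3 TPM. By TPM, 15 of the 26 were highest in replicate 2, as was nek2.S, against 28.3% of all detected rows. The 17 meiosis rows did not move together. Their sum was 1490, 1680 and 1424 TPM, highest in replicate 2, and 6, 8 and 3 of the 17 were highest in replicates 1, 2 and 3. Their median, 78.4, 44.8 and 65.4 TPM, was the row stag3.L in each library. Its low in replicate 2 is thus that of 1 gene and not of the list. The part of these shifts in the NEK levels was not tested. In whole testis, fewer cells of a type and less RNA per cell cannot be told apart.

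**Figure D3:**
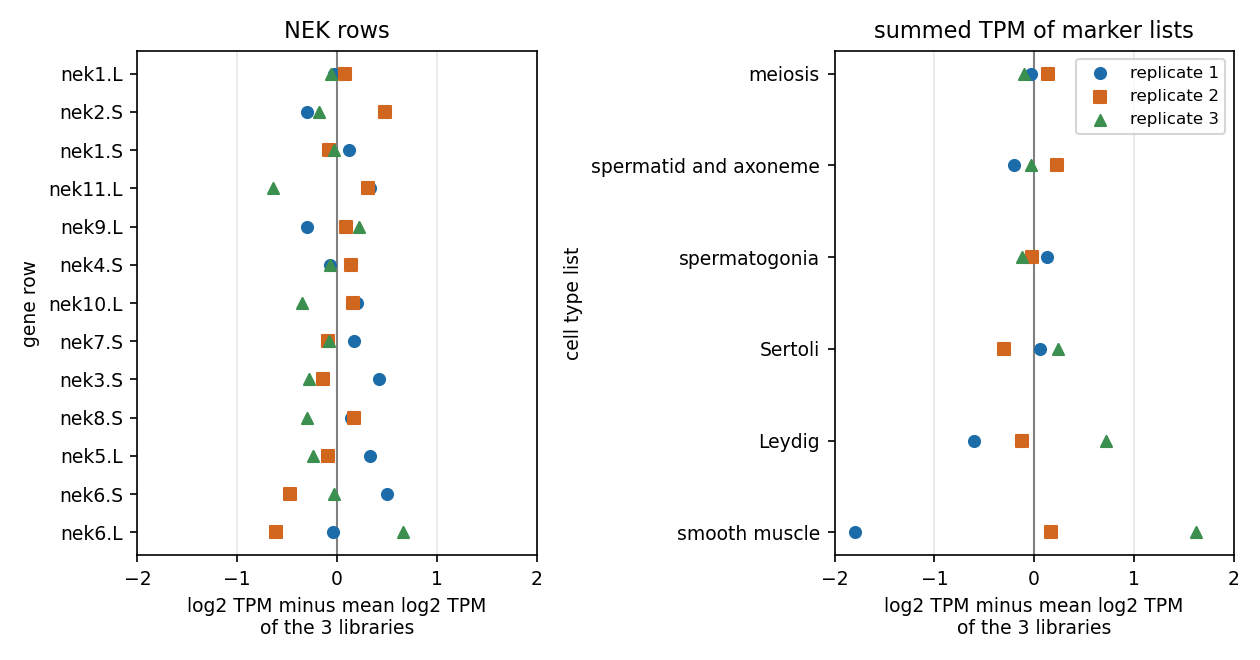
Log2 TPM of each library minus the mean log2 TPM of the 3 libraries, for the NEK rows (left) and for the summed TPM of marker lists (right). The NEK rows lie within 0.66 of 0 on this scale, while the smooth muscle sum runs between -1.79 in replicate 1 and 1.62 in replicate 3.

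The measured marker rows of meiosis and of spermatids were nearly all detected, where 81.6% of all rows with a gene name were. These rows stood for 15 of 20 listed meiosis genes and 19 of 23 listed spermatid and axoneme genes. Of the meiosis rows, 16 of 17 passed the detection limit, with the highest levels in the synaptonemal complex genes syce2.L at 267 ± 45.6 TPM and sycp3.L at 258 ± 46.1 TPM (SD, n = 3). Among spermatid and axoneme rows 25 of 26 passed, and the most abundant were odf3.L at 571 ± 76.4 TPM and tekt1.L at 379 ± 74.8 TPM. Rows of the genes that direct multiciliated epithelial cells, gmnc, mcidas and ccno, had a median of 0.862 TPM, and 4 of 6 were detected, led by ccno.S at 1.83 ± 0.264 TPM and ccno.L at 1.59 ± 0.600 TPM. Of 17 spermatogonia rows 12 were detected, with a median of 2.06 TPM, led by dazl.L at 1181 ± 133 TPM and ddx4.L at 397 ± 72.0 TPM. Of 10 oocyte rows 5 were detected, with a median of 0.645 TPM, led by figla.L at 103 ± 21.9 TPM and gtf3a.L at 70.3 ± 17.0 TPM.

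The measured rows of genes that work with the NEK kinases were nearly all detected, where 81.6% of all rows with a gene name were. Over 6 lists of pathway genes and other cell cycle kinases, which share plk1 and chek1, 111 of 113 rows were detected, and the rows not detected in all libraries were rpgrip1.L and cdc25a.S. The 32 rows of other cell cycle kinases had a median of 36.1 TPM. Of the NEK rows, 3 lay above that value and 10 below it. The list was led by cdk1.L at 234 ± 56.7 TPM and cdk1.S at 164 ± 36.3 TPM, the catalytic subunit that drives entry into division, with cdk2.S at 164 ± 25.8 TPM and mastl.L, the Greatwall kinase, at 129 ± 29.4 TPM (SD, n = 3). None of the NEK rows reached these 4.

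In the spindle pathway the median row had 17.4 TPM, and 21 of 21 rows passed the detection limit. It was led by the dynein light chain copies dynll1.L at 396 ± 70.9 TPM and dynll1.S at 734 ± 81.6 TPM, whose product binds NEK9. The gamma-tubulin copies tubg1.L and tubg1.S followed at 111 ± 38.3 and 163 ± 20.1 TPM. Named for their role with their values known, the activating kinase copies plk1.L and plk1.S had 55.7 ± 14.3 and 33.0 ± 8.04 TPM, and the motor copies kif11.L and kif11.S had 13.0 ± 2.09 and 16.3 ± 5.42 TPM. By the means, nek9.L, at 35.3 ± 6.36 TPM, lay between the plk1 copies, and nek7.S, at 14.2 ± 1.51 TPM, between the kif11 copies. Since plk1 and kif11 were picked with their values known, no match of kinase and partner can be read from this.

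In the list of the centrosome linker and NEK2 the median row had 23.7 TPM, and 23 of 23 rows passed. It was led by ppp1cc.L at 236 ± 28.5 TPM and ppp1cc.S at 365 ± 76.0 TPM, catalytic subunits of protein phosphatase 1, which opposes NEK2. The linker gene cep68.L had 195 ± 47.2 TPM, and ppp1r2.S, for the phosphatase inhibitor-2, had 165 ± 30.7 TPM. The linker anchor cep250.S, a NEK2 substrate named here for its role with its values known, had 7.15, 6.53 and 6.44 TPM, well below nek2.S in each library. Of these 23 rows, 10 were highest in replicate 2, where nek2.S was highest too, 7 in replicate 1 and 6 in replicate 3. These counts are by TPM. Over all detected rows, 28.3% were highest in replicate 2 by TPM, and 35.8% on scaled CPM. This high was not particular to the list, with 16 of 32 rows of other cell cycle kinases highest there. The spindle pathway had 10 of 21 rows highest there and the NEK1 and NEK4 partners 9 of 16. The checkpoint list had 4 of 14 and the inversin compartment list 2 of 11.

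In the list of the inversin compartment 11 of 11 rows passed. Its median row had 9.78 TPM, beside 8.16 ± 1.41 TPM for nek8.S. Its members included the ciliary gene iqcb1.L at 47.9 ± 13.5 TPM and the channel gene pkd2.L at 16.4 ± 3.44 TPM. The inversin copies invs.L and invs.S, which give the compartment its name, had 2.57 ± 0.4995 and 6.37 ± 1.01 TPM. The NEK8 activator anks6 was not analysed here.

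Among partners of NEK1 and NEK4 the median row had 29.7 TPM, and 15 of 16 rows passed. They were led by the mitochondrial channel copy vdac1.L at 184 ± 5.94 TPM and by xrcc6.L, for a subunit of the Ku complex that binds DNA ends, at 152 ± 18.1 TPM. The gene cfap410, whose human protein binds NEK1, followed with cfap410.S at 74.9, 130 and 61.1 TPM in replicates 1, 2 and 3, and vdac1.S had 61.5 ± 6.88 TPM. For the checkpoint genes around NEK10 and NEK11 the median was 29.4 TPM, with 13 of 14 rows detected. The phosphatase copy cdc25a.L, whose human protein is the target of NEK11, led them at 132, 226 and 166 TPM. It was followed by the casein kinase copy csnk1a1.S at 134 ± 23.4 TPM and the checkpoint kinase copies chek1.L at 96.9 ± 2.31 TPM and chek1.S at 74.6 ± 10.9 TPM.

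**Figure D4:**
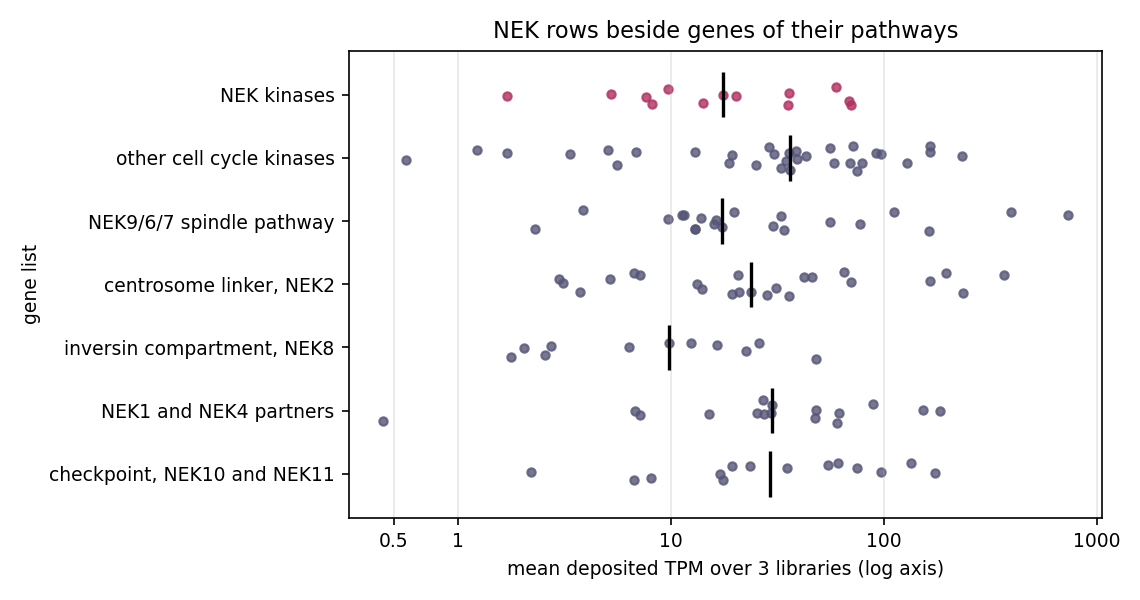
Mean deposited TPM over the 3 libraries (log axis) of each row of the NEK family and of 6 lists of pathway genes and cell cycle kinases. Black bars are medians, 17.5 TPM for the NEK rows and 36.1 TPM for the other cell cycle kinases.

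The homeologs of these partners went both ways. Their counts are read against the 61.1% of all pairs that passed at an adjusted p below 0.05 (edgeR). Among the other cell cycle kinases, 10 of 13 pairs passed, 7 toward L and 3 toward S. The widest were plk4, with L over S at 2.49 on the log2 scale, and cdk2, at -2.25. Without the library as a block, 4 passed toward L and 3 toward S. Of 9 spindle pathway pairs, 2 passed toward L, with kif20a at 1.82, and 3 toward S, with eml4 at -2.37. With the L and S columns scaled separately, 5 of these 9 passed toward S. Of 6 centrosome linker pairs, 3 passed toward S, with ndc80 at -3.68, and 0 toward L. Of 3 inversin compartment pairs, invs passed toward S, at -1.32.

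Of 5 pairs of NEK1 and NEK4 partners, 3 passed toward L, with vdac1 at 1.59, and 2 toward S, with rpgrip1 at -4.84. The rpgrip1 call was lost without replicate 2, at -3.22, and without replicate 3, at -4.79, and its value was -6.68 without replicate 1. Without replicate 2, 2 of these 5 pairs passed toward L and 1 toward S. Of 6 checkpoint pairs, 3 passed toward L and 1 toward S. There cdc25a stood at 6.58, at 7.87 without replicate 1 and at 5.79 without replicate 3, and at 8.96 without the length offset. The deposited lengths are 1578 bases for cdc25a.L and 303 bases for cdc25a.S. The row cdc25a.S had only 92, 38 and 1 counts in replicates 1, 2 and 3, so the size of this ratio is uncertain. The casein kinase pair csnk1a1 stood at -1.14. Without replicate 3, 1 of these 6 pairs passed toward L, and without replicates 1 or 2 it was 2.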

How the data were processed

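Whole testis RNA was selected for poly-A and prepared with Illumina's TruSeq mRNA reagents, per the labels' protocols. The authors deposited counts per gene, per the file headers. Alignment with HISAT2 and counting with featureCounts are named in the submitters' processing notes. The sources used here do not give the strand setting or the treatment of reads matching several places. The build appears only through a number in the title of the deposited table, which may mean v10.1, so no coordinates are reported. The authors also deposited TPM and gene lengths in bases, per the file headers, and 90.9% of the lengths are multiples of 3. NCBI names and transcript numbers came from the gene table for Xenopus_laevis_v10.1, where 34693 of 34694 rows matched. There, nek6.L overlaps a pseudogene, and the other NEK genes overlap no listed gene. Sequences of the NEK genes were not used here.

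CPM used TMM factors of 1.07, 0.956 and 0.979 (edgeR 4.0.16). Library totals of 61212304 to 70580016 counts leave counting errors of 0.798% to 12.6% in the lowest library of each NEK row. Of 7764 homeolog pairs, 6627 entered the test, those whose copies summed to 1 CPM or more in every library. The model was edgeR's quasi-likelihood F test with a library block, since L and S come from the same library, an offset of library size times length and a threshold of 0.05. The SE is the absolute log2 ratio divided by the square root of F. Alternatives used DESeq2 1.42.0, limma 3.58.1, other scalings, filters and subsets of libraries.

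Members, lists and tests were chosen with earlier results of these data known. Named are all NEK rows, up to 4 detected rows of highest mean TPM and up to 3 called pairs of widest ratio per pathway list, and up to 2 rows of highest mean TPM per marker list, with the exceptions stated. Some rows that this rule names are not reported here.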

Additional observations from a re-analysis of the deposited data

How the results depend on the processing

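Under the alternatives run, the tested NEK results kept their direction and their side of the threshold. The nek6 log2 ratio of L to S ran between -2.67 without the length offset and -1.38 without replicate 1, with adjusted p of at most 0.0465. Leaving out 1 library gave -2.01 to -1.38. The nek1 ratio ran between 0.11, with the L and S columns scaled separately, and 0.32, and its lowest adjusted p was 0.0893, with limma-voom. Without the replicate block, nek6 stood at -1.60 (adjusted p = 0.0100, edgeR) and nek1 at 0.25 (adjusted p = 0.179, edgeR), and 3756 of all pairs passed, against 4049 with the block. Scaling the L and S columns separately gave 2064 calls toward L and 2005 toward S over all pairs, against 2283 and 1766. At 1 CPM, 12 of 13 NEK rows were detected, and nek6.L was not. The order of the 13 rows was unchanged with TMM scaling, and the median CV was 18.3% on TMM-scaled CPM. Leaving out 1 library, an alternative added after seeing the data, left 7 to 11 rows at their rank. The row nek2.S was above nek1.L without replicate 1 (76.2 against 71.0 TPM) and without replicate 3 (74.0 against 71.7 TPM), and below nek1.S without replicate 2 (56.7 against 61.3 TPM). The row nek9.L was above nek11.L without replicate 1 (38.8 against 32.3 TPM) and without replicate 2 (34.5 against 32.7 TPM), and nek5.L was above nek8.S without replicate 2 (7.94 against 7.71 TPM). Also added then, the length of nek6.L for nek6.S put nek6.S at 10.6 TPM, above nek3.S. The summed NEK level ran between 338 TPM without replicate 2 and 371 TPM without replicate 3. Depth limits nek6.L most, with 63 to 138 counts.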
